A study of Mus musculus with 6 samples.

Results

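The isoforms that carry glucose into a cell and through the first and last steps of glycolysis were examined in C2C12 cells, an established mouse myoblast line, in which the imprinted long non-coding RNA Meg3 had been targeted by siRNA. They comprise 10 genes: the glucose transporters Slc2a1, Slc2a3 and Slc2a4, the hexokinases Hk1 and Hk2, the phosphofructokinases Pfkm, Pfkl and Pfkp, and the lactate dehydrogenases Ldha and Ldhb. Every non-control probe of a single-colour Agilent mouse expression array whose RefSeq accession belongs to 1 of these genes was taken, which gave 14 probes of 39429 on the array, and 10 genes of 20659 named there. The probes were taken by gene with no filter on a measured value, but the genes were chosen with earlier results of these data known. Ldha had 3 probes, Hk1 and Pfkp had 2 each and the other genes 1 each. The siRNA-MEG3 group held 3 arrays and the siRNA-NC group, transfected with negative control oligonucleotides, also held 3. All cells were kept in medium with 10% fetal bovine serum and were transfected at 70 to 80% confluence, with siRNA given in the labels as "20 um". How long after transfection the RNA was taken is not stated in the labels. All samples come from 1 cell line.

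Glucose enters the cell through transporters of the GLUT family and is trapped by hexokinase as glucose 6-phosphate. GLUT1 (Slc2a1) works at the surface of most dividing cells, whereas GLUT4 (Slc2a4) is held in vesicles in mature muscle and fat and moves to the surface after insulin or contraction. Phosphofructokinase commits the sugar to glycolysis as a tetramer of muscle (Pfkm), liver (Pfkl) and platelet (Pfkp) subunits, and lactate dehydrogenase, a tetramer of A (Ldha) and B (Ldhb) subunits, interconverts pyruvate and lactate. Muscle is known for its Hk2, Pfkm and Slc2a4, and many of these genes are known targets of the hypoxia-inducible factor HIF and of Myc.

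The promoters of the hexokinase and lactate dehydrogenase isoforms are shown because the results below set the isoforms of each of these steps against each other. Each runs from 250 bases before to 50 bases after an annotated transcription start, on the strand of the gene, and comes from RefSeq on GRCm38.p6. Capitals mark the E-box CANNTG, the motif of basic helix-loop-helix factors such as Myod1 and Myc, and the HIF core ACGTG, both searched on both strands.
Hk2, chr6:82774405-82774704, minus strand: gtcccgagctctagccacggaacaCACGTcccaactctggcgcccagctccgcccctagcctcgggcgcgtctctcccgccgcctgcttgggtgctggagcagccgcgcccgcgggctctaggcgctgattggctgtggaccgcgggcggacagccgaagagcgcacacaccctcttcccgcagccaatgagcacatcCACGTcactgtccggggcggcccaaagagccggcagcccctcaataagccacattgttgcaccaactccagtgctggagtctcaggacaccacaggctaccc
Hk1, chr10:62340372-62340671, minus strand: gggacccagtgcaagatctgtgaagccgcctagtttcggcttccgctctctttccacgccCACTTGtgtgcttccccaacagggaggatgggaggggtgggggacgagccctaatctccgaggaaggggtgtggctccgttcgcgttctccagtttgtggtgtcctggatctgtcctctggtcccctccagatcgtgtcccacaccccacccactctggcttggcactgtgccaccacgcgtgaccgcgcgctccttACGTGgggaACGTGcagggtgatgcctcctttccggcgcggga
Hk1, upstream start, chr10:62379859-62380158, minus strand: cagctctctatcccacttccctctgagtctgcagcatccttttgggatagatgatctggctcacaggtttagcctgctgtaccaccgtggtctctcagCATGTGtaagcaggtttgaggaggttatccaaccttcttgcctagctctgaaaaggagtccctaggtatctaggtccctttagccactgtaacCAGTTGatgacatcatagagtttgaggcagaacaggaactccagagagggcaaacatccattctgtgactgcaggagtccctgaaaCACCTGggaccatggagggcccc
Ldha, chr7:46845554-46845853, plus strand: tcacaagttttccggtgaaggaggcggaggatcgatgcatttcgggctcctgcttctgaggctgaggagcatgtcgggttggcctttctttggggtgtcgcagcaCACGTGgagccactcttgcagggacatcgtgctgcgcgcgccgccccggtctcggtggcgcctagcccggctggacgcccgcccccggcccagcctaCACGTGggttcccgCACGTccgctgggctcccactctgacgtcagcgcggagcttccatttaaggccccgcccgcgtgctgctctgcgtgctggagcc
Ldhb, chr6:142507908-142508207, minus strand: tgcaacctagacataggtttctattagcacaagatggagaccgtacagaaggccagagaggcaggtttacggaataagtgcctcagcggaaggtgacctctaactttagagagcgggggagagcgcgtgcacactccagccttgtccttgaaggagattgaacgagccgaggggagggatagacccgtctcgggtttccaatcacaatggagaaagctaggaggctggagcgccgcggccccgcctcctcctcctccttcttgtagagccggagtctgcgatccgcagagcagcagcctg

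The Hk2 window held the HIF core 2 times and no E-box. Of the Hk1 windows, the first held 2 HIF cores and 1 E-box, and the upstream one held 3 E-boxes and no HIF core. The Ldha window held 5 matches to the HIF core, 4 of which lie in 2 copies of CACGTG, a palindrome that matches the core on each strand and is also an E-box. A second annotated Ldha start, at chr7:46846832-46847131, held 2 E-boxes and no HIF core. The Ldhb window held neither motif. Of 32851 promoter windows of this length, 72.3% held an E-box, 19.6% the HIF core and 7.15% CACGTG. Of the 10 genes, 8 had a window in the table, 13 windows in all; Slc2a3 and Slc2a4 are the others. These matches describe the letters of the windows, and which start each probe reports was not tested.

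The arrays did not all count as separate samples. The spots of 230 repeated probes showed siRNA-MEG3 arrays 1 and 3 to share the scatter of their single spots (r = 0.978), as repeat scans of 1 hybridised array do, and siRNA-NC arrays 1 and 3 to differ from probe to probe no more than repeated spots do (ratio of these variances 1.02, against 176 between siRNA-NC arrays 1 and 2). That ratio was 1.43 and 1.59 between siRNA-MEG3 array 2 and siRNA-MEG3 arrays 1 and 3, below the 2.10 between the repeat scans, while spot scatter was not shared (r = -0.12 and -0.15). The SD of the difference over these probes was 0.128 and 0.134 there. It was 0.0496 between siRNA-NC arrays 1 and 3, 0.0197 between the repeat scans and 0.563 between siRNA-NC arrays 1 and 2. The siRNA-MEG3 samples thus lay further apart than the averaged arrays and closer than the siRNA-NC samples. These values cannot show that they hold separate RNA. In each group arrays 1 and 3 were averaged and counted as 1 sample, which left n = 2 samples per group. The p-values below rest on the spread within these pairs of samples, which may be partly technical. The siRNA-NC arrays were scanned in 1 run, siRNA-MEG3 arrays 1 and 2 in another and array 3 in another again, so scan run and group cannot be told apart. Meg3 was too dim to check the knockdown: its 3 probes were well above background in none of their readings in siRNA-MEG3 (processed signal 2.97 to 13.6), and in 1 reading in siRNA-NC (3.17 to 25.5). Spots well above background made up 62.8 to 69.3% of siRNA-MEG3 arrays and 70.1 to 75.2% of siRNA-NC arrays, and no spot was saturated. Of 8 markers of differentiating muscle, 4 rose with siRNA-MEG3 (Tnnt3, Myog, Myh3 and Mymx; log2 difference 3.47 to 7.05, limma adjusted p from 0.0187 to 0.0265), and the list's summed signal was 3202 to 3404% of the 75th percentile in siRNA-MEG3 and 719 to 868% in siRNA-NC. Of 8 myoblast markers none passed, and their summed signal was 4081 to 4240% in siRNA-MEG3 and 2514 to 3071% in siRNA-NC. They did not move together: 5 were above 0 and 3 below. Myf5 had a log2 difference of -2.86, against 2.29 for Myod1 and 1.41 for Cdh15. None of the markers of fibroblasts, adipocytes, endothelial or immune cells passed; summed, the fibroblast markers were at 25246 to 26859% in siRNA-MEG3 and 17356 to 27218% in siRNA-NC, and the immune markers at 97.9 to 102% in siRNA-MEG3 and 63.8 to 70.5% in siRNA-NC. The adipocyte markers summed to 35.3 to 37.5% in siRNA-MEG3 and 21.4 to 29.3% in siRNA-NC, and the endothelial markers to 95.2 to 132% in siRNA-MEG3 and 90.1 to 96.0% in siRNA-NC. A sum follows the brightest genes of its list, and members of a list differed in direction. Of 4 measured adipocyte markers, 2 were above 0 and 2 below. Of 5 immune markers, 3 were above 0 and 2 below, and of 6 fibroblast markers, 4 were above 0 and 2 below. Both measured endothelial markers were above 0. The part of these markers in the results below was not tested. Among adipocyte and endothelial markers, Lep and Emcn were not well above background on any array.

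No isoform passed the test. All 14 probes were well above background on all 6 arrays, and none of them was called higher or lower by limma at an adjusted p of 0.05, where 1.37% of 26345 probes were called, 0.998% higher and 0.372% lower. Their adjusted p-values ran from 0.245 (Hk2) to 0.999 (Hk1). At an unadjusted p of 0.05, 1 of the 14 passed (Hk2), against 19.2% of all probes. The median log2 difference, siRNA-MEG3 minus siRNA-NC, was -0.03 over the 14 probes, 5 above 0 and 9 below, and 0.05 over all probes. The 3 arrays of each group did not overlap for 3 of the 14 probes (Hk2 and Pfkm with all siRNA-MEG3 arrays above, 1 Ldha probe with all below), while 47.3% of all probes did not overlap, 28.8% with all siRNA-MEG3 arrays above and 18.5% with all below. Values below are signals in percent of each array's own 75th percentile over all probes, in the order of the array numbers, and log2 differences are on that scale with the SE of the fit. The level of 1 probe says nothing about that of another, since probes differ in how strongly they bind.

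**Figure D1:**
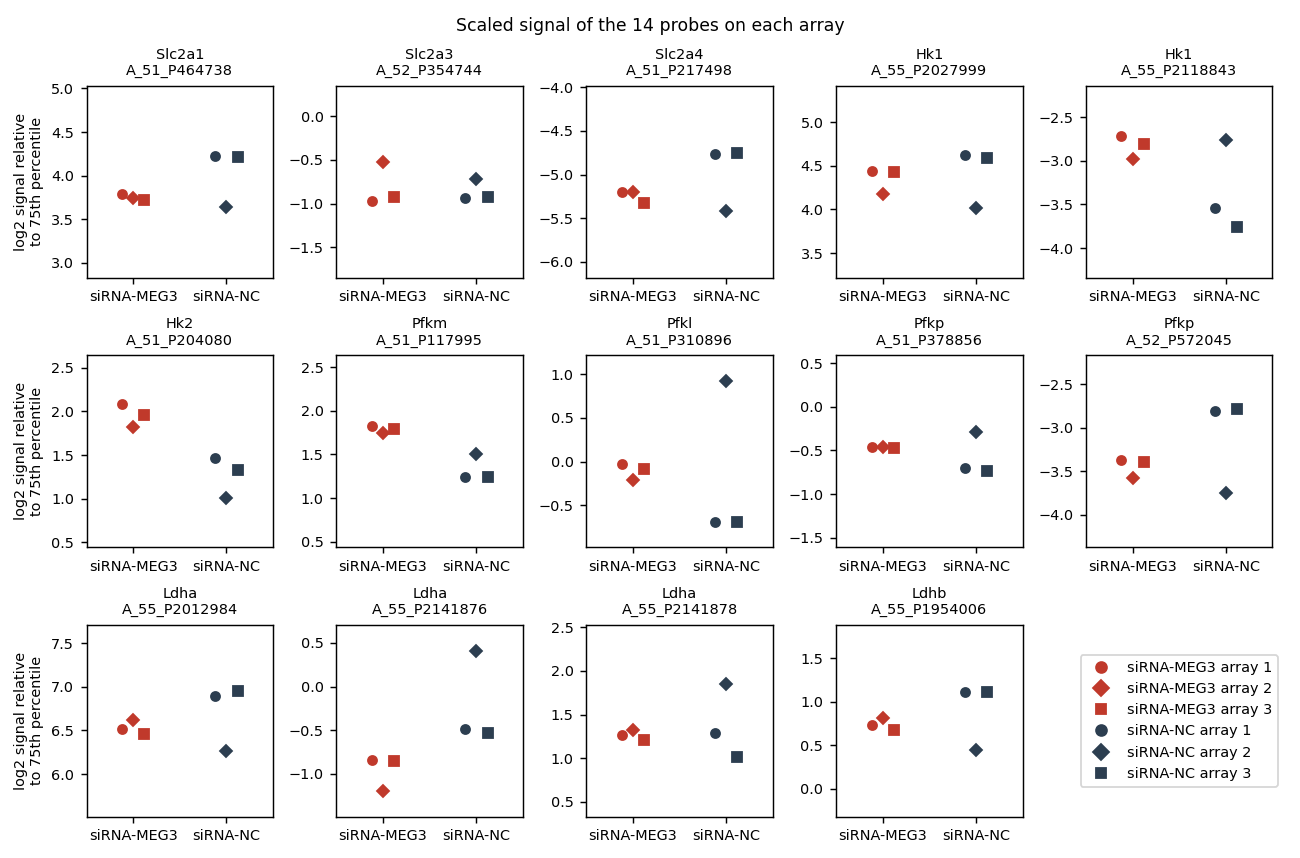
Scaled log2 signal of each of the 14 probes on every array, with siRNA-MEG3 (red) left of siRNA-NC (dark blue); each panel spans the same height of 2.2 log2 units, and the y axis gives the signal relative to the array's 75th percentile. Hk2 and Pfkm are the panels with all red points above the dark ones, Ldha A_55_P2141876 the panel with all below, and siRNA-NC array 2 (dark diamond) lies away from the other siRNA-NC arrays in most panels.

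**Figure D2:**
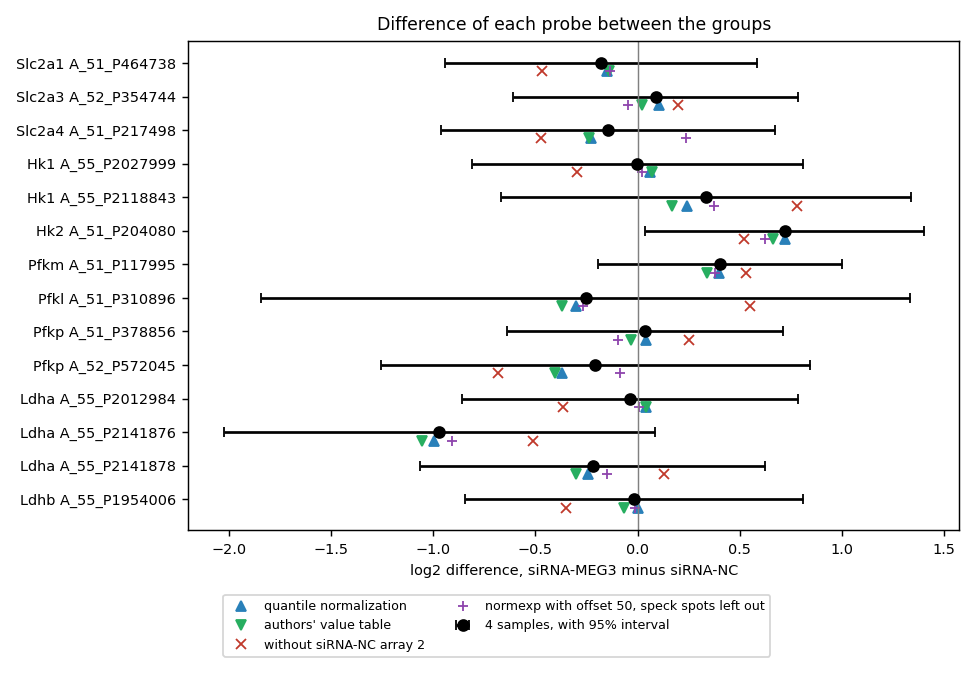
Log2 difference of each probe, siRNA-MEG3 minus siRNA-NC (black, n = 2 samples per group, bars are 95% intervals), with the same difference under 4 other settings. Only the Hk2 interval, 0.04 to 1.40, leaves out 0, and the Pfkl value moves across 0 when siRNA-NC array 2 is left out.

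Among the transporters, Slc2a1, which encodes GLUT1, stood at 1384, 1338 and 1322% on the siRNA-MEG3 arrays, against 1868, 1245 and 1852% on the siRNA-NC arrays. All siRNA-MEG3 arrays lay between siRNA-NC array 2 and the other siRNA-NC arrays. The log2 difference was -0.18 ± 0.28 (SE, n = 2 per group; limma adjusted p = 0.797), and -0.47 without siRNA-NC array 2 (adjusted p = 0.145). Slc2a3, which encodes GLUT3, the transporter best known from neurons, stood at 51.0, 69.4 and 52.8% with siRNA-MEG3, against 52.1, 60.8 and 52.7% with siRNA-NC. In both groups array 2 was the highest, and the groups overlapped. The log2 difference was 0.09 ± 0.26 (adjusted p = 0.897), and 0.20 without siRNA-NC array 2.

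Slc2a4, which encodes the insulin-responsive GLUT4, was dim, with a processed signal, before scaling, of 32.7, 34.5 and 29.0 on the siRNA-MEG3 arrays, against 47.1, 53.1 and 45.4 on the siRNA-NC arrays. Unscaled, every siRNA-MEG3 array was below every siRNA-NC array. After scaling the values were 2.73, 2.72 and 2.49% with siRNA-MEG3, against 3.67, 2.34 and 3.72% with siRNA-NC, and the groups overlapped through siRNA-NC array 2. The log2 difference was -0.15 ± 0.30 (adjusted p = 0.849), and -0.47 without siRNA-NC array 2. It turned to 0.24 in the setting that used normexp background correction with an offset of 50, above the probe's own signal on most arrays, and left out spots under a bright speck. Which of these changes turned the sign was not tested. The probe is printed 10 times, and 7 to 10 of its usable spots were well above background on each siRNA-MEG3 array and 8 to 10 on each siRNA-NC array.

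**Figure D3:**
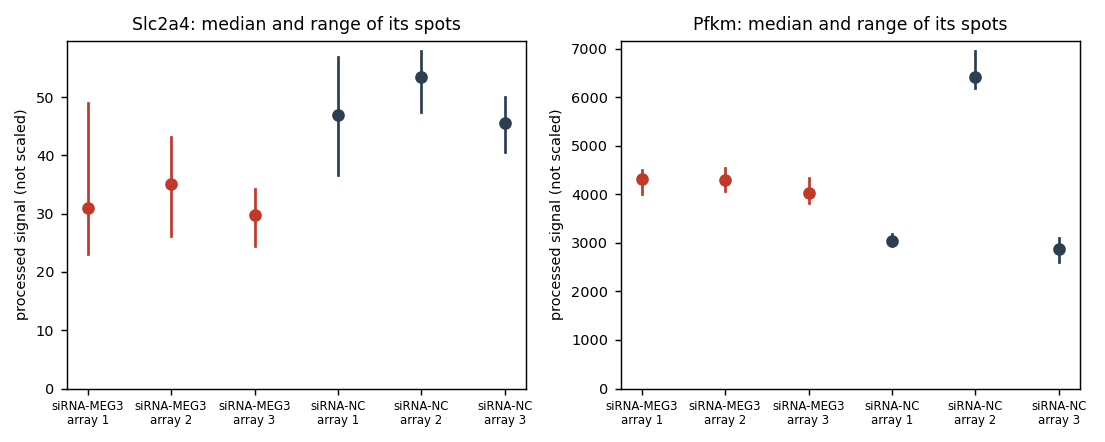
Processed signal, before scaling, of the repeated spots of Slc2a4 (left) and Pfkm (right) on each array, siRNA-MEG3 left (red) and siRNA-NC right (dark blue); points are medians and lines run from the lowest to the highest usable spot. The Slc2a4 spots span 23.0 to 49.0 on siRNA-MEG3 array 1 alone, while the Pfkm spots on each array are tight and siRNA-NC array 2 stands above all others.

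Hk2, the hexokinase of insulin-sensitive tissue that binds mitochondria, had the smallest p of all the isoforms. It stood at 424, 353 and 390.0% on the siRNA-MEG3 arrays, against 277, 201 and 252% on the siRNA-NC arrays, so that the lowest siRNA-MEG3 array was above the highest siRNA-NC array. The log2 difference was 0.72 ± 0.25, a 1.65-fold difference with a 95% interval of 0.04 to 1.40 on the log2 scale (unadjusted p = 0.0426 and adjusted p = 0.245 by limma, n = 2 per group). It ranked 4583 of 26345 probes by p. The difference was positive under all 19 other settings, between 0.52 and 0.82, and 0.52 without siRNA-NC array 2. With all 6 arrays entered as 6 samples it passed (adjusted p = 0.027), in a fit that counts near-identical arrays as separate samples and calls 26.5% of all probes. Without scaling, siRNA-NC array 2 read 4544, inside the siRNA-MEG3 range of 4489 to 5086, and the other siRNA-NC arrays read 3071 and 3550; the separation of the groups therefore rests on the scaling for that array.

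Hk1, the hexokinase found in most tissues, was read by 2 probes of the same transcript. Probe A_55_P2027999 stood at 2178, 1809 and 2159% with siRNA-MEG3, against 2468, 1613 and 2403% with siRNA-NC. The groups overlapped, and the log2 difference was -0.00 ± 0.30 (adjusted p = 0.999), or -0.30 without siRNA-NC array 2. Probe A_55_P2118843 stood at 15.2, 12.7 and 14.3% with siRNA-MEG3, against 8.62, 14.7 and 7.38% with siRNA-NC. Here siRNA-NC array 2 was at the level of the siRNA-MEG3 arrays and the other siRNA-NC arrays were below it, and the log2 difference was 0.33 ± 0.37 (adjusted p = 0.697), or 0.78 without siRNA-NC array 2. The probes of Hk1 thus gave unlike differences, neither beyond its error.

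Pfkm, the muscle subunit of phosphofructokinase, stood at 355, 336 and 346% on the siRNA-MEG3 arrays, against 237, 284 and 237% on the siRNA-NC arrays. All siRNA-MEG3 arrays were above all siRNA-NC arrays on this scale. The log2 difference was 0.40 ± 0.22, a 1.32-fold difference (95% interval -0.20 to 1.00; adjusted p = 0.416), and it lay between 0.22 and 0.53 under the other settings. The probe is printed 10 times, and its spots varied by a CV of 3.47 to 4.35% within a siRNA-MEG3 array and 2.44 to 4.63% within a siRNA-NC array. Before scaling, Pfkm read 4257, 4266 and 4045 with siRNA-MEG3, against 3046, 6428 and 2892 with siRNA-NC, and array 2 of siRNA-NC was the highest of all. It passed with all 6 arrays as 6 samples (adjusted p = 0.0382).

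Pfkl, the liver subunit, had the widest spread of all the probes. It stood at 98.4, 86.1 and 94.1% with siRNA-MEG3, against 62.1, 189.9 and 62.1% with siRNA-NC. The siRNA-NC samples differed 3.06-fold, with array 2 the higher, and every siRNA-MEG3 array lay between them. The log2 difference was -0.25 ± 0.59 (adjusted p = 0.865), and it turned to 0.55 without siRNA-NC array 2, so no direction can be given. Pfkp, the platelet subunit, was read by 2 probes. Probe A_51_P378856 stood at 72.4, 72.5 and 72.1% with siRNA-MEG3, against 61.3, 82.0 and 60.3% with siRNA-NC, a log2 difference of 0.04 ± 0.25 (adjusted p = 0.958), or 0.25 without siRNA-NC array 2. Probe A_52_P572045 stood at 9.63, 8.37 and 9.51% with siRNA-MEG3, against 14.3, 7.43 and 14.5% with siRNA-NC, a log2 difference of -0.21 ± 0.39 (adjusted p = 0.831), or -0.69 without siRNA-NC array 2 (adjusted p = 0.147). Both probes had siRNA-MEG3 arrays between the siRNA-NC samples, but siRNA-NC array 2 was the highest of its group on the first and the lowest on the other.

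Ldha, the A subunit, which is known for favouring the formation of lactate, was read by 3 probes of the same transcript that gave unlike values. Probe A_55_P2012984 stood at 9158, 9863 and 8833% with siRNA-MEG3, against 11895, 7712 and 12393% with siRNA-NC, a log2 difference of -0.04 ± 0.30 (adjusted p = 0.964), or -0.37 without siRNA-NC array 2. Probe A_55_P2141878 stood at 241, 249.7 and 231% with siRNA-MEG3, against 244, 359 and 202% with siRNA-NC, a log2 difference of -0.22 ± 0.31 (adjusted p = 0.770), or 0.13 without siRNA-NC array 2. For both, the groups overlapped. Probe A_55_P2141876 stood at 56.0, 43.7 and 55.3% with siRNA-MEG3, against 71.3, 133 and 69.5% with siRNA-NC. All siRNA-MEG3 arrays were below all siRNA-NC arrays, and the log2 difference, -0.97 ± 0.39 (95% interval -2.03 to 0.08; adjusted p = 0.290), was the largest in size of the 14. It was -0.51 without siRNA-NC array 2, which was the highest of its group. The spot of this probe lay in a dark patch of siRNA-MEG3 arrays 1 and 3. Such a patch is a block where more than 5% of spots read over 4-fold below the mean of the other group, so most of its spots may read normally. Without the spots in such patches, which leaves 1 siRNA-MEG3 sample for this probe, the difference was -1.17. The part of the patch in the result was not tested beyond that value. Ldhb, the B subunit of heart and other oxidative tissue, stood at 166, 176 and 160.3% with siRNA-MEG3, against 217, 136 and 216% with siRNA-NC. The groups overlapped, and the log2 difference was -0.02 ± 0.31 (adjusted p = 0.983), or -0.35 without siRNA-NC array 2.

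The balance between isoforms of 1 step was compared within arrays, as the difference of their scaled log2 values, over 6 pairs with the brightest probe of each gene. Hk2 relative to Hk1 was 0.72 higher on the log2 scale in siRNA-MEG3 samples than in siRNA-NC samples (SD 0.04 in siRNA-MEG3 and 0.14 in siRNA-NC). Relative to the siRNA-NC mean it was 0.78, 0.78 and 0.67 on the siRNA-MEG3 arrays, against -0.02, 0.13 and -0.11 on the siRNA-NC arrays, with no overlap. This separation was found with the brighter Hk1 probe only. The dimmer Hk1 probe had a log2 difference of 0.33, beside 0.72 for Hk2. Without siRNA-NC array 2 the dimmer Hk1 probe was at 0.78 and Hk2 at 0.52, so the balance would turn the other way. Pfkm relative to Pfkp was 0.37 higher (SD 0.05 in siRNA-MEG3 and 0.12 in siRNA-NC), at 0.39, 0.30 and 0.36 with siRNA-MEG3, against 0.05, -0.12 and 0.07 with siRNA-NC. This separation, too, was found with the brighter Pfkp probe only. The dimmer Pfkp probe had a log2 difference of -0.21, beside 0.40 for Pfkm. With the dimmer probe, siRNA-NC array 2 would lie among the siRNA-MEG3 arrays. Hk2 relative to Hk1, Pfkm relative to Pfkp and Ldhb relative to Ldha, by their brightest probes, each gave an exact permutation p of 0.333. That is the smallest that 2 samples against 2 allow, so no pair could pass, and p adjusted over the 6 pairs was 0.667. With 3 arrays against 3, where 0.1 is the smallest, the exact p was 0.1 for the hexokinase pair and for Pfkm relative to Pfkp, and 0.4 for Ldhb relative to Ldha. That permutation counts near-identical arrays as separate samples, so its p-values are not further evidence. Hk2 relative to Hk1 was 0.59 with the authors' deposited table and 0.82 without siRNA-NC array 2. Pfkm relative to Pfkl was 0.66 higher, but siRNA-NC arrays 1 and 3 were at 0.45, among the siRNA-MEG3 values of 0.37 to 0.48, and siRNA-NC array 2 lay apart at -0.90. Without that array the difference was -0.02. Slc2a3 relative to Slc2a1 was 0.27 higher with overlapping arrays, and 0.66 without siRNA-NC array 2. Slc2a4 relative to Slc2a1 differed by 0.03 (SD 0.05 in siRNA-MEG3 and 0.06 in siRNA-NC), and Ldhb relative to Ldha by 0.02 (SD 0.02 in siRNA-MEG3 and 0.01 in siRNA-NC), with overlapping arrays for both. With the authors' deposited table these were -0.10 and -0.11, so neither has a settled direction. The small value for Ldhb relative to Ldha was found with the brightest Ldha probe. The other Ldha probes had log2 differences of -0.97 and -0.22, beside -0.02 for Ldhb.

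**Figure D4:**
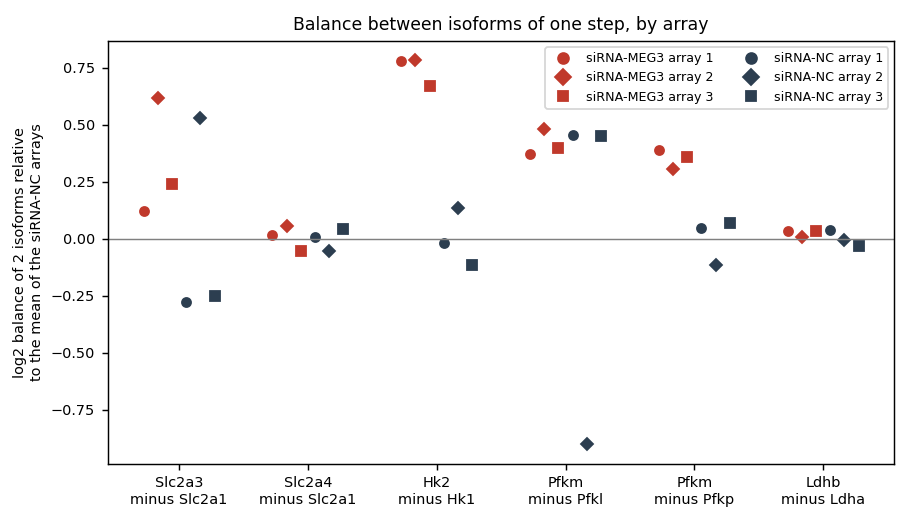
Log2 balance of 6 isoform pairs on each array, relative to the mean of the siRNA-NC arrays (0), with siRNA-MEG3 arrays (red) left of siRNA-NC arrays (dark blue) in each pair. Each gene is shown by its brightest probe only. Hk2 minus Hk1 and Pfkm minus Pfkp separate the groups, Ldhb minus Ldha and Slc2a4 minus Slc2a1 lie close to 0 on every array, and siRNA-NC array 2 alone sets Pfkm minus Pfkl apart.

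For most of these probes the siRNA-NC samples differed more from each other than the groups did. Both siRNA-MEG3 samples lay between the siRNA-NC samples for 10 of the 14 probes (71.4%), against 21.2% of all probes; the exceptions were Slc2a3, Hk2, Pfkm and Ldha A_55_P2141876. The SD between the siRNA-MEG3 samples was 0.004 to 0.30 on the log2 scale, against 0.15 to 1.14 between the siRNA-NC samples, and the siRNA-NC SD was the larger for 13 of the 14 probes, all but Slc2a3. Scaled siRNA-NC array 2 was below the other siRNA-NC sample for 7 of the 14 probes and for 63.2% of all probes. Slc2a1, Slc2a4, the brighter Hk1 and Ldha probes and Ldhb were alike in this: siRNA-NC array 2 minus the other siRNA-NC sample was -0.66 to -0.58 for each. The median of this difference over all probes split by signal into equal parts was -0.25 in the dimmest part, which holds Slc2a4, then -0.06, then -0.03 in the part that holds Ldhb, and -0.35 in the brightest, which holds the others.

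**Figure D5:**
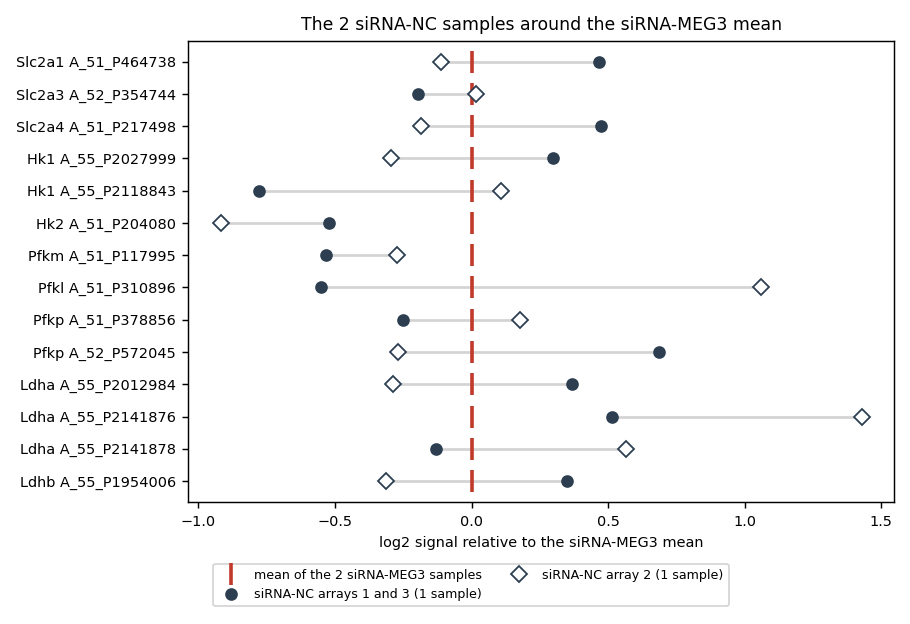
Scaled log2 signal of the siRNA-NC samples relative to the siRNA-MEG3 mean (red bar at 0) for each of the 14 probes; filled circles are the mean of siRNA-NC arrays 1 and 3 and open diamonds siRNA-NC array 2. For Hk2, Pfkm and Ldha A_55_P2141876 both siRNA-NC samples lie on the same side of 0, and Pfkl spans the widest range, 1.61 log2 units.

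None of the 8 lists of genes around these isoforms held a gene that passed. Among 8 measured other sugar transporters and hexokinases, 4 were above 0 and 4 below, with a median log2 difference of -0.02, beside 0.09 over all named genes by their brightest probe. Slc2a6, a lysosomal hexose transporter, had a log2 difference of 1.15 ± 0.20 (adjusted p = 0.105), though its other probe gave -0.03. Slc2a9, a urate transporter, stood at -1.24 ± 0.35 (adjusted p = 0.187; -0.40 with normexp) and Slc2a8 at -0.49 ± 0.26 (adjusted p = 0.390). These 3 are the genes of the list with the smallest p, and the 4 with the smallest p are named from each list that follows.

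Among 14 measured other glycolytic enzymes, 10 were above 0, with a median of 0.10. Pgam2, the muscle form of phosphoglycerate mutase, stood at 1.45 ± 0.21 (SE, n = 2 per group; adjusted p = 0.0754), with all siRNA-MEG3 arrays above all siRNA-NC arrays, and at 0.83 with normexp. Eno3, the muscle form of enolase, was at 0.39 ± 0.36 (adjusted p = 0.626), and Bpgm and Pgam1 were at 0.18 and 0.16, both turning to values under 0 with median scaling. The brightest probes of Gpi1, Aldoa, Gapdh, Pgk1 and Eno1 lay between -0.05 and 0.12. The other probes of Gpi1 gave -0.08 and 0.09, and those of Gapdh ran from -1.33 to 0.02. Of 9 regulators of fructose 2,6-bisphosphate and genes of gluconeogenesis, 7 were above 0, with a median of 0.33. Pfkfb1 was at 0.83 ± 0.28 (adjusted p = 0.232), Tigar, a bisphosphatase, at 0.66 ± 0.26 with its other probe at 0.02, Pfkfb3 at 0.66 ± 0.32 (0.31 without siRNA-NC array 2) and Pfkfb4 at -0.40 ± 0.23, none of which passed.

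Of 17 genes of lactate and pyruvate handling, 5 were above 0 and 12 below, with a median of -0.09. The lactate transporters had unlike values. Slc16a7, which encodes MCT2, was at -2.80 ± 0.69 (adjusted p = 0.161) and was well above background on only 1 of the 3 siRNA-MEG3 arrays; its size is uncertain, and was -0.57 with normexp. Slc16a3, which encodes the lactate exporter MCT4, was at -0.90 ± 0.27 (adjusted p = 0.199) with its other probe at -0.79, while Slc16a1, which encodes MCT1, was at 0.61 ± 0.24 (adjusted p = 0.276). Dlat, a subunit of pyruvate dehydrogenase, was at 0.76 ± 0.32 (adjusted p = 0.303; 0.45 without siRNA-NC array 2).

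Of 11 glycogen genes, 9 were above 0, with a median of 0.56, and the arrays of the groups did not overlap for 7, as for 7277 of 15366 named genes by their brightest probe and 47.3% of all probes. Pygm, the muscle glycogen phosphorylase, was at 1.83 ± 0.24 (adjusted p = 0.0613), the smallest adjusted p of the 8 lists. Phkb, a subunit of phosphorylase kinase, was at -1.30 ± 0.27 (adjusted p = 0.129; -0.78 with normexp), Ugp2, which makes UDP-glucose, at 0.76 ± 0.21 (adjusted p = 0.180) and Gyg, the primer of glycogen, at 0.87 ± 0.26 (adjusted p = 0.198). Among the other settings with at least 2 samples per group, Pygm passed in the 3 that kept near-identical arrays apart and with normexp. Pgam2 passed in the same 3.

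Of 14 genes of insulin-regulated GLUT4 traffic, 8 were above 0, with a median of 0.05. Sort1, which encodes the sorting receptor sortilin of GLUT4 vesicles, was at -1.23 ± 0.36 (adjusted p = 0.198), though its other probe gave -0.36 and normexp -0.65. Tbc1d1, a Rab GTPase-activating protein, was at 0.63 ± 0.39 (0.16 without siRNA-NC array 2) with its other probe at 0.28. Insr, the insulin receptor, was at 0.29 ± 0.21 with its other probes at 0.41 and -0.33, and Vamp2, a vesicle fusion protein, at -0.59 ± 0.44, or -0.02 without siRNA-NC array 2. Of 12 known regulators of glycolytic and GLUT4 genes, most of them transcription factors, 7 were above 0, with a median of 0.03. Mef2a, an activator of Slc2a4, was at -0.79 ± 0.21 (adjusted p = 0.176), Myc at 0.80 ± 0.23 (adjusted p = 0.195), Klf15 at -1.0 ± 0.29 (adjusted p = 0.196) and the carbohydrate-responsive factor Mlxipl at -1.38 ± 0.46 (adjusted p = 0.226). The other probe of Mlxipl gave 0.01, and the one printed here stood at -0.84 with normexp and -0.81 without dark patches; the other probe of Mef2a gave -0.53. Of 10 hypoxia targets outside glycolysis, 6 were above 0, with a median of 0.12. The prolyl hydroxylase Egln3 was at 1.04 ± 0.24 (adjusted p = 0.144) with its other probe at 1.07, Vegfa at 0.59 ± 0.21 (adjusted p = 0.245) with its other probe at -0.06, the carbonic anhydrase Car9 at -0.58 ± 0.23 (adjusted p = 0.276) and Ankrd37 at 0.55 ± 0.32 (adjusted p = 0.438; 0.20 without siRNA-NC array 2).

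The 5 genes most like Ldha A_55_P2141876, the isoform probe with the largest difference in size, were found by the root mean square difference of mean-centred log2 values over the 4 samples. They included Thra (0.061), Diablo (0.063), Borcs6 (0.079) and Ass1 (0.083). The log2 differences of these 4 ran from -1.08 (Ass1) to -0.84 (Borcs6), and with 4 samples many probes can follow such a pattern closely.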

How the data were processed

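RNA from C2C12 cells was measured on 6 single-colour Agilent arrays. Agilent Feature Extraction 11.0.1.1 gave the deposited processed signal intensity of each spot, background-subtracted, per the file headers. The authors' deposited table gives log2 values with an equal median of 8.11, 75th percentile of 11.38 and maximum of 18.18 on each array. Quantile normalization also makes these equal, so the authors' values and that setting may not be separate checks. The log2 scale follows from their match to the scanner signals, and how arrays were made equal is not stated. Control spots and spots marked as outliers were left out, spots of a probe were averaged, and log2 processed signal was expressed relative to each array's 75th percentile. Probes well above background on every array of at least 1 group were kept. Near-identical arrays were averaged to 2 samples per group. The comparison used limma 3.58.1 (lmFit and eBayes, 2-sided; R 4.3.3) over all 26345 kept probes, with Benjamini-Hochberg adjustment at 0.05; the script was tested on simulated data. Isoform pairs were compared by an exact 2-sided permutation test. Of 39429 probes, 27234 were named through RefSeq accessions. Named genes are every isoform, the 4 genes with the smallest p of each list, and the 5 nearest in pattern; genes named beside these, such as Gpi1 and Gapdh, were chosen after their values were seen. Of the genes this rule gives, 2 are not reported here. Members and lists were chosen with earlier results of these data known. The same-numbered arrays of the groups did not deviate together (r from -0.04 to -0.03), and the main fit used no pairing. Arrays 1 and 3 of each group were near-identical, so these correlations mainly set array 2 against the others. They are not separate evidence and cannot show how arrays 1 and 3 pair. Depth on an array is signal over background, and the number of arrays limits the precision. Alternatives were other scalings, normexp background correction of the median signals with an offset of 50 (spots under a bright speck were left out with it), filters, sample counts, the authors' values, a replicate block and leaving out each array.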

Additional observations from a re-analysis of the deposited data

How the results depend on the processing

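Of 262 values of the isoform probes under other settings, 233 kept their direction and side of the threshold, 3 passed it and 26 changed sign; of 698 values of the other named genes, 642 kept both, 53 passed and 3 changed sign. The isoforms had 0 calls in the other settings, except 2 higher with all 6 arrays as 6 samples (Hk2 and Pfkm) and 1 with these and quantile normalization (Hk2 adjusted p = 0.0128), a setting added after the data were seen, as was median scaling. All probes called higher and lower numbered 263 and 98 (72.9% higher), and 233 and 148 (61.2% higher) with median scaling, which moved the median of all probes to -0.14, as normexp with the speck spots left out, called normexp below, moved it to 0.17. They were 4330 and 2617 with 6 samples, 4523 and 2969 with quantile normalization of these, 1311 and 942 with 5 samples, 0 and 0 with no filter on dim probes (limma; 5281 at an unadjusted p of 0.05), 319 and 195 without dark patches and 137 and 21 with the authors' values. The replicate block paired the averaged arrays 1 and 3 of the groups, and array 2 of each, by their numbers alone. With it they were 183 and 62, and no isoform was called. No array correlated best with its own number. Leaving out 1 array gave 0 to 1373 higher and 0 to 1766 lower, with 0 isoforms higher and 0 lower. The 0 came without siRNA-NC array 2 (8469 at an unadjusted p of 0.05, 5 of them isoform probes) and the highest counts without siRNA-MEG3 array 2, where the lone sample is assumed to vary like the other group. The fit without siRNA-MEG3 array 2 also used 1 variance for all probes, with the same SE of 0.54 for every isoform probe. The causes of these counts were not tested.

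Signs changed as follows. Pfkl stood at 0.041 with 6 samples, 0.014 with 5, 0.00053 with 6 and quantile normalization, and -0.27 to 0.55 leaving out 1 array, the highest without siRNA-NC array 2. Pfkp A_51_P378856 stood at -0.048 with the labels' normalization factor, -0.097 with normexp, -0.041 with outlier spots kept, -0.034 with the authors' values and -0.15 with median scaling. Hk1 A_55_P2027999 stood at 0.060 with quantile normalization, 0.023 with normexp, 0.070 with the authors' values, 0.049 with 6 samples and quantile normalization, and -0.30 (without siRNA-NC array 2) to 0.13 (without siRNA-MEG3 array 2) leaving out 1 array, with 0.0024 without siRNA-MEG3 array 3 and 0.0088 without siRNA-NC array 1. Ldha A_55_P2012984 stood at 0.040 with quantile normalization, 0.0063 with normexp, 0.041 with the authors' values and 0.015 with 6 samples and quantile normalization. Slc2a3 stood at -0.049 with normexp, -0.098 with median scaling and -0.12 (without siRNA-MEG3 array 2) to 0.20 leaving out 1 array. Slc2a4 stood at 0.24 with normexp, Ldhb at 0.0043 with quantile normalization, and Ldha A_55_P2141878 at -0.29 to 0.13 leaving out 1 array, the highest without siRNA-NC array 2. Bpgm stood at -0.00242 and Pgam1 at -0.026 with median scaling, and Eno3 at -0.033 (without siRNA-NC array 2) to 0.40 leaving out 1 array.

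Dark patches took up 33.7% of siRNA-MEG3 arrays 1 and 3, 5.87% of siRNA-MEG3 array 2 and 0.836% of siRNA-NC array 1, and held spots of 6 of the 14 probes. They are defined against the other group, so differences between the groups can also mark a block, and the shares do not measure a defect. Without them, with 1 siRNA-MEG3 sample left for each, Hk1 A_55_P2027999 stood at -0.15, Pfkl at -0.36 and Ldha A_55_P2012984 at -0.10. Dim probes such as Slc2a4 are limited by signal over background. The intervals above are not limits of detection, and any difference inside them remains possible.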
